A study of Mus musculus with 6 samples.

Results

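The phase II transferases described here are the glutathione S-transferases (GSTs), the UDP-glucuronosyltransferases (UGTs) and the cytosolic sulfotransferases (SULTs) of mouse liver. Members were taken by gene symbol from the deposited expression table: GSTs of classes alpha, kappa, mu, omega, pi, theta and zeta, the Ugt1, Ugt2 and Ugt3 genes, and every numbered Sult gene. This gave 59 of 23224 rows, with 21 GSTs, 20 UGTs and 18 SULTs. Of these, 44 had enough counts to be tested (19 GSTs, 18 UGTs and 7 SULTs), 7 had rounded counts of 0 in all livers, and the other 8 had a few counts.

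RNA came from whole flash-frozen, ground liver of 35 week old mice that either lack PKM2, the M2 splice form of the glycolytic enzyme pyruvate kinase, from the germline onward (PKM2 KO) or are wild type (WT). Each genotype had 3 independent mice, all untreated and on a mixed C57BL/6J x 129SvJ background. The labels give no sex, litter or batch. Polyadenylated RNA was sequenced from TruSeq libraries, and levels are given here as counts per 1000000 (CPM) with TMM scaling, a correction for differences in library composition. In bulk tissue, fewer cells of a type and less RNA per cell cannot be told apart.

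Phase II enzymes attach a polar group to drugs, hormones, bilirubin, bile acids and reactive products of oxidation, so that these can be carried out of the hepatocyte into bile or blood. GSTs use the tripeptide glutathione, UGTs use UDP-glucuronic acid in the endoplasmic reticulum, and SULTs use the sulfate donor PAPS in the cytosol. Liver is the main site of all 3 families, and many of their genes are known targets of the receptors CAR, PXR and AHR, of the stress factor NRF2, or of the sex-dependent growth hormone signal.

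Several of the members described next sit in pairs or clusters of close copies. Promoter sequence is shown for 3 such pairs because their members either moved together from liver to liver (Gstp1 with Gstp2, and Ugt2b37 with Ugt2b38) or lie in 1 locus and did not (Ugt1a1 and Ugt1a9). Reads of close copies can be divided between them, so moving together is not a separate observation for each copy. Each is the 250 bases before the RefSeq start site, 5′ to 3′ on the gene's strand, in the GRCm38.p6 build. The windows are chr19:4037913-4038162 for Gstp1 and chr19:4042222-4042471 for Gstp2, both on the minus strand. In these, capitals mark the AP-1 site TGAGTCA, which was added to the motifs searched after the sequences were read.
Gstp1: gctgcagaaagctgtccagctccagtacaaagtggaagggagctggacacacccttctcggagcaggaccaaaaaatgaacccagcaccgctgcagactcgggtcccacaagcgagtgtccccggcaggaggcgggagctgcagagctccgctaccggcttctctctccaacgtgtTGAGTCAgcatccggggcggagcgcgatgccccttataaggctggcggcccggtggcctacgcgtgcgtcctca
Gstp2: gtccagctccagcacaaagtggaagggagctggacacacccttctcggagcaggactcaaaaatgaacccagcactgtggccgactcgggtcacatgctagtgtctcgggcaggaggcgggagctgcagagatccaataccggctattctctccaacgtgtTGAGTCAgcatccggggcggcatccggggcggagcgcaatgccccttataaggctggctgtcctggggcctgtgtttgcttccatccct
The site starts at position -74 in Gstp1 and -89 in Gstp2, counted back from the start site. Both windows have it in the same flanking sequence, and 208 of their 235 aligned bases (88.5%) are identical.

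The Ugt2b37 window is chr5:87254789-87255038 and the Ugt2b38 window is chr5:87424204-87424453, both on the minus strand. Here capitals mark the bases that differ between the pair within the stretch that a global alignment pairs, or that 1 of them lacks inside it; the unpaired ends are in lower case.
Ugt2b37: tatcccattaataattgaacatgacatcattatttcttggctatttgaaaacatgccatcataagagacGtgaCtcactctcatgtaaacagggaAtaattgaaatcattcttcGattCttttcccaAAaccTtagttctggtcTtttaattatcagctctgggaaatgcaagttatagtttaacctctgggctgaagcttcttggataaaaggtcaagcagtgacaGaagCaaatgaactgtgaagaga
Ugt2b38: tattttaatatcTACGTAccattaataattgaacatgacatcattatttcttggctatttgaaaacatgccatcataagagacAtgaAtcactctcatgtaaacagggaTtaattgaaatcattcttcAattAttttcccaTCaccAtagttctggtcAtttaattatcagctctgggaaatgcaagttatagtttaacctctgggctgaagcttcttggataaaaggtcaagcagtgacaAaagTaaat
Of 236 aligned bases, 225 (95.3%) are identical. The AP-1 site stands at -180 of Ugt2b37 on the opposite strand and is not in the window of Ugt2b38.

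For the Ugt1a pair, the windows are chr1:88211709-88211958 (Ugt1a1) and chr1:88070529-88070778 (Ugt1a9), both on the plus strand. Capitals mark the core letters of a site for the hepatocyte factor HNF1, searched as GTTAATNAT on both strands and found on the opposite strand in both.
Ugt1a1: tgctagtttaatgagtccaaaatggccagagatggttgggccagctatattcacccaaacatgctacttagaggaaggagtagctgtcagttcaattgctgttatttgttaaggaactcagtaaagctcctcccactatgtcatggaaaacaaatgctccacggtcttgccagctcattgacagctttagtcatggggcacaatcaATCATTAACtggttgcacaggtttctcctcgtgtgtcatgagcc
Ugt1a9: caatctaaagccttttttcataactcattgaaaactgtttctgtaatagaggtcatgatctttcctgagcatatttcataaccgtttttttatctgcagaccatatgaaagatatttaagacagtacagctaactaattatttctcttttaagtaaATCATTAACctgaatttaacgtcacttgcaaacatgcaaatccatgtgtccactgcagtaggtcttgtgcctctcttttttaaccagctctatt
The HNF1 core starts at -44 in Ugt1a1 and at -94 in Ugt1a9. Of 178 aligned bases 120 (67.4%) are identical, with 50 gap bases inside the alignment. The Gstp pair had 15 such gap bases and the Ugt2b pair 6. What identity unrelated promoters reach was not tested, so a likeness of these windows is not shown. Over the 250-base windows of all 32851 RefSeq promoters of full length, 0.737% held this core. Of 61 promoters of the 51 members with an entry, 8 held it (13.1%), namely those of Ugt1a1, Ugt1a9, Ugt1a10, Sult1d1 and Sult2a3 to Sult2a6. Only 4 of these members were tested. Sult2a3 to Sult2a6 are related copies on chromosome 7 with rounded counts of 0 in all livers, and the Ugt1a genes lie in 1 locus. The 8 promoters are therefore not independent of each other. Other motifs searched on both strands were the AP-1 site (4.46% of all promoters, 7 of 61 members' promoters), the antioxidant response core TGACNNNGC (10.2%, 3 of 61), the AHR core GCGTG (28.2%, 9 of 61) and the STAT5 palindrome TTCNNNGAA (7.02%, 4 of 61). In the Gstm5 promoter an AP-1 match overlaps an AHR core. A match describes the letters only and is not a shown binding site.

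Several facts about the libraries touch the values below. Totals ran from 27727048 to 36125711 expected counts, and 3 counts correspond to 0.0812 to 0.107 CPM. Pkm, the targeted gene, listed under its older symbol Pkm2, had 6.31 to 9.65 CPM in the PKM2 KO group and 15.9 to 26.6 CPM in the WT group, with no overlap (adjusted p = 0.314 in edgeR's quasi-likelihood test with Benjamini-Hochberg adjustment). WT 1 and WT 2 held pancreatic transcripts: the summed level of 24 acinar cell markers was 3604 and 10425 CPM there and 36 to 66.1 CPM in the other livers. The acinar enzyme gene Amy2a5 alone was at 1524 CPM in WT 1 and 4310 CPM in WT 2, and Ctrb1, a chymotrypsinogen gene, at 319 and 814 CPM. Acute phase genes, a list of 28 chosen after values were seen, summed to 56886 CPM in WT 2 and 34177 CPM in WT 3, against 18264 to 26484 CPM in the other 4 livers. All 6 livers expressed the Y-linked gene Ddx3y (55.2 to 77.2 CPM) and had at most 0.152 CPM of Xist. The 10 hepatocyte markers summed to between 111704 and 144707 CPM in every liver, with Alb (45663 to 82601 CPM) and Trf (13248 to 17136 CPM) the highest. The 14 macrophage and Kupffer cell markers summed to 439.7 to 495 CPM in PKM2 KO and 575 to 612 CPM in WT, with Mpeg1 (63.1 to 140 CPM) and Cd5l (73.1 to 84.3 CPM) the highest. The part of these differences in the results below was not tested, except where a value without a liver is given.

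The comparison asks which of these enzymes differ in transcript level when PKM2 is absent. No member passed the threshold of an adjusted p under 0.05 in edgeR's quasi-likelihood test over all 13058 genes, where 3 genes (0.023%) did. The smallest adjusted p of a member was 0.566. An unadjusted p under 0.05 was reached by 11 of the 44 tested members (25%), against 7.24% of all genes. Of the 11, 5 had a higher mean in PKM2 KO (2.87% of all genes) and 6 a lower one (4.37% of all genes). All 3 PKM2 KO livers lay above all 3 WT livers for 7 members (15.9%, against 5.8% of all genes) and below them for 2 members (all genes 6.27%). Of the 7 on the higher side, 6 were UGTs. The log2 fold change was positive for 30 of 44 members (68.2%, against 47.6% of all genes). As with all such values below, this is the log2 ratio of PKM2 KO over WT from the fit, and its median was 0.18 for the members and -0.01 for all genes.

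These counts depended on which livers of either genotype were included, and changed less with scaling. Without WT replicate 1, 23 of 45 tested members reached an unadjusted p under 0.05 (all genes 16.2%) and 23 lay wholly above WT (all genes 17.5%). Without WT replicate 2 or without WT replicate 3, 8 members had such a p (17.8% and 18.2%, against 5.82% and 7.37% of all genes). Leaving out any 1 PKM2 KO liver left 6 members with such a p (13.3% to 13.6% of those tested, against 3.37% to 5.98% of all genes). Scaling by library totals left 6 members wholly above WT (all genes 6.05%), of which 4 were UGTs. It left 0 members wholly below WT, so the separation of Gsta1 and Sult1a1 was lost. In either direction, 10.6% of all genes did not overlap with that scaling.

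**Figure D1:**
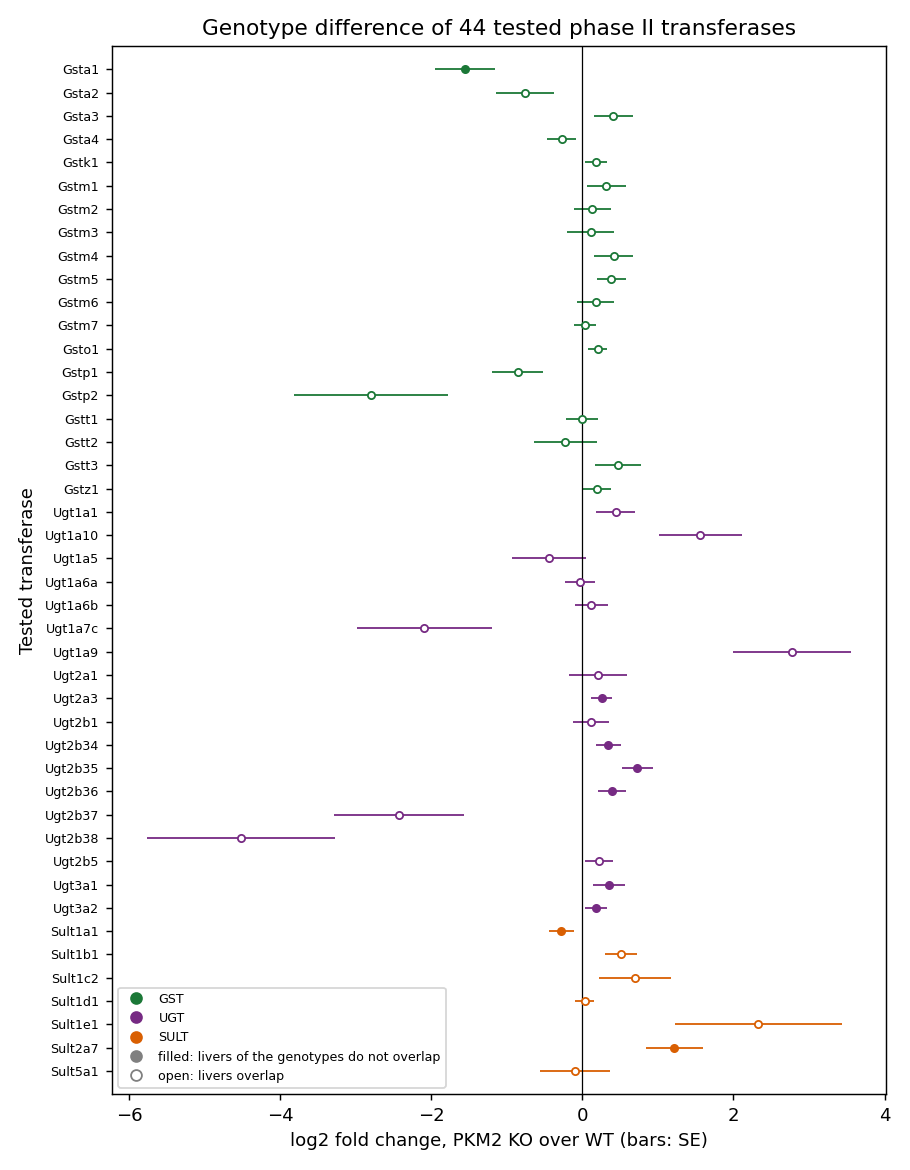
Log2 fold change of PKM2 KO over WT for each of the 44 tested transferases (x axis), with bars of 1 SE, coloured by family; filled points mark genes whose livers do not overlap between genotypes. Of the points, 30 lie right of 0, and Ugt2b38 at -4.52 lies farthest to the left and Ugt1a9 at 2.77 farthest to the right, both with long bars and overlapping livers.

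The WT livers varied more than the PKM2 KO livers. The SD of log2 level over the 3 livers was larger in WT than in PKM2 KO for 37 of 44 members (84.1%), and for 70.6% of all genes. Its median over members was 0.44 in WT and 0.18 in PKM2 KO (all genes 0.21 and 0.13). WT 3 was the lowest of the 6 livers for 22 of the 44 members (50%, against 23.4% of all genes) and WT 2 for 13. PKM2 KO 2 was the highest for 16 members (36.4%, against 12.2% of all genes).

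**Figure D2:**
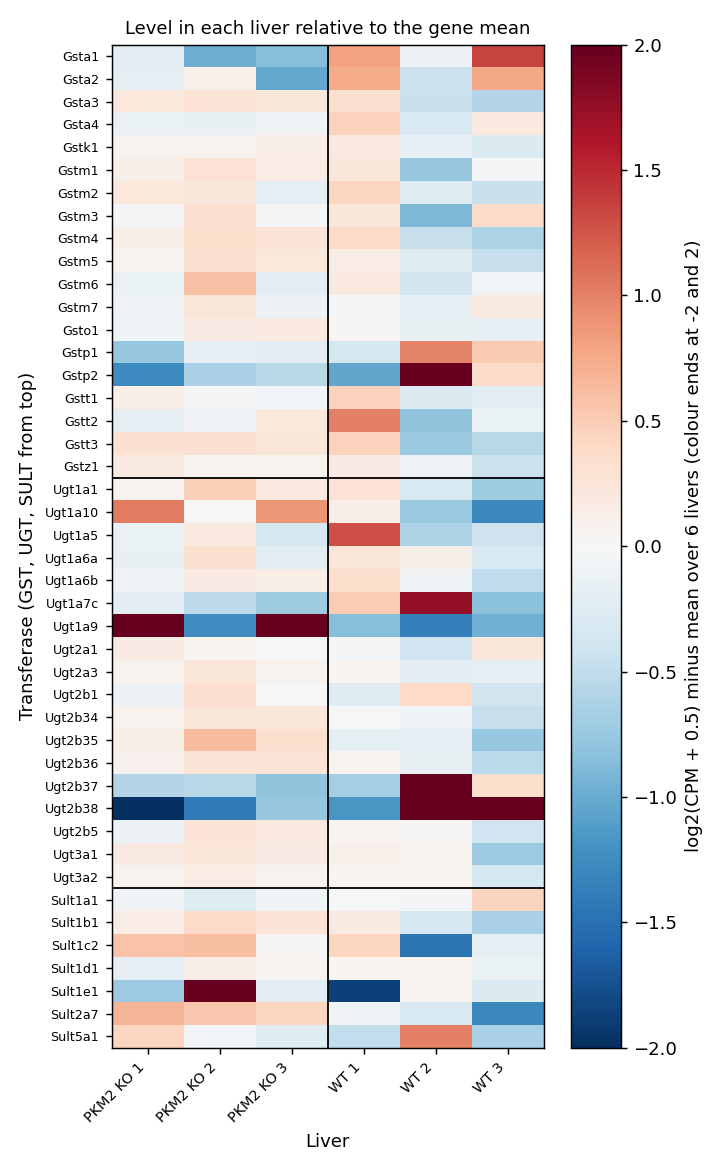
Level of each tested transferase (rows, grouped as GST, UGT and SULT) in each liver (columns), as log2(CPM + 0.5) minus the mean of the gene over the 6 livers. WT 3 is the lowest liver for 22 genes, and the darkest cells belong to Gstp2, Ugt1a9, Ugt2b37, Ugt2b38 and Sult1e1.

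Summed over each family, UGT transcripts came to 4825, 5502 and 5204 CPM for PKM2 KO livers 1 to 3, in that order here and below, and to 4755, 4502 and 3313 CPM for WT livers 1 to 3. The 3 PKM2 KO sums lay above all WT sums, although PKM2 KO 1 exceeded WT 1 by little, and the ratio of the means was 1.24 (5177 ± 339 against 4190 ± 770 CPM, SD, n = 3). Ugt1a9 alone held 336 CPM of the sum in PKM2 KO 1 and 33.9 CPM of that in WT 1. That difference is larger than the gap between the sums of these livers, so without Ugt1a9 the genotypes overlap. GST transcripts summed to 6089, 6691 and 6283 CPM in PKM2 KO and 6805, 5422 and 5452 CPM in WT. Here the highest liver was WT 1, so the genotypes overlapped. SULT transcripts summed to only 431 to 473 CPM in PKM2 KO and 446 to 496 CPM in WT, again overlapping. All 59 rows together took 0.926% to 1.27% of the counts of a liver.

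**Figure D3:**
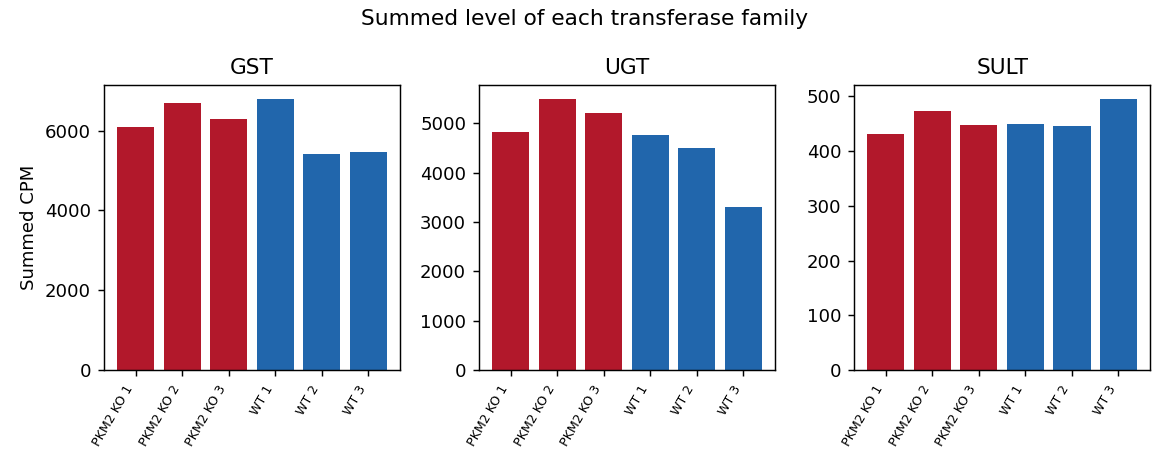
Summed CPM (y axis, from 0) of the GST, UGT and SULT families in each liver, PKM2 KO in red and WT in blue. The UGT bars run from 4825 to 5502 CPM in PKM2 KO and from 3313 to 4755 CPM in WT, while the GST and SULT bars overlap between genotypes.

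Compared per kilobase of the longest coding transcript, Gstm1 (1303 CPM per kb over the 6 livers), Gsta3 (1117) and Gstp1 (1100) were the most abundant transferases, followed by Gstz1 (502). That order is of means over livers that differed: Gstp1 was the highest in WT 2 (2013 CPM per kb, against 752 for Gstm1) and WT 3 (1451 against 1252), and the third in the other 4 livers (594.5 to 891). Among UGTs the order was Ugt2b5 (413 CPM per kb), Ugt2b36 (346), Ugt2b1 (260) and Ugt1a1 (202). The most abundant SULT was Sult1a1 (175 CPM per kb), followed by Sult1d1 (60.8). Within the GST family, Gstp1 made up 8.02% of the summed CPM in the lowest liver and 30.5% in the highest, a wider range than that of Gstm1 (17.9% to 29.9%) or Gsta3 (19.3% to 30%).

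Among alpha class GSTs, which detoxify lipid peroxidation products and bind bilirubin and steroids, the low-abundance member Gsta1 had the smallest p of all transferases. Its level was 5.62, 3.14 and 3.47 CPM in PKM2 KO and 12, 6.07 and 17.7 CPM in WT. Every PKM2 KO liver lay below every WT liver, by a narrow gap between PKM2 KO 1 and WT 2. With scaling by library totals the genotypes overlapped. The means were 4.08 ± 1.35 and 11.9 ± 5.82 CPM (SD, n = 3 each), a log2 fold change of -1.55 (SE 0.40) with an adjusted p of 0.566 in edgeR's quasi-likelihood test. With DESeq2 it passed (adjusted p = 0.00884). Over all alternatives its adjusted p ran from 0.00884 to 1 and its log2 fold change from -2.12 to -0.88.

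Gsta1 shares 44.6% of its 50-base words with Gsta2, so reads can be divided between them. Gsta2, which was picked with its values in view, had 32.9, 39.8 and 18.1 CPM in PKM2 KO and 62.8, 27.4 and 64.1 CPM in WT. WT 2 lay among the PKM2 KO livers, and with both genes summed into 1 row the log2 fold change was -0.88 (adjusted p = 0.682). Gm3776, a predicted gene on the same chromosome with a symbol outside the families and picked in the same way, had 3.38, 3.2 and 1.95 CPM in PKM2 KO and 9.37, 6.45 and 18 CPM in WT. As in Gsta1, every PKM2 KO liver lay below every WT liver and WT 3 was the highest (log2 ratio -1.99, adjusted p = 0.488). The 50-base words were compared among members only, and the summed row left Gm3776 out. Whether Gm3776 and Gsta1 divide the same reads was not tested, so the likeness is not a separate observation.

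Gsta3, the abundant alpha class enzyme, which in mice conjugates the epoxide of aflatoxin, was at 1828, 1899 and 1845 CPM in PKM2 KO and 1977, 1162 and 1052 CPM in WT. Only WT 2 and WT 3 were low, while WT 1 lay above the PKM2 KO range. The log2 fold change was 0.41 (SE 0.26, adjusted p = 0.783). Across the class, 3 of 4 tested members had a negative fold change.

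Pi class transcripts showed a contrast inside the WT group. Gstp1, known as a male-biased GST of mouse liver, was at 488, 731 and 708 CPM in PKM2 KO and at 650.5, 1653 and 1191 CPM in WT. WT 2 and WT 3 stood above the rest, while WT 1 fell within the PKM2 KO range. The means were 642 ± 134 and 1165 ± 502 CPM (log2 ratio -0.86, SE 0.34, adjusted p = 0.668). Its copy Gstp2, which shares 44.3% of its words with Gstp1, was at 1.79, 3.02 and 3.22 CPM in PKM2 KO and at 2.18, 47.4 and 6.58 CPM in WT. The log2 fold change was -2.80 with all livers and -0.72 without WT replicate 2. No alternative brought the adjusted p of Gstp1 below 0.0955 or that of Gstp2 below 0.126.

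The 7 tested mu class genes, which include the major hepatic GST Gstm1, all had a small positive fold change, between 0.04 and 0.42 on the log2 scale, and none reached an unadjusted p under 0.05. Gstm1 was at 1766, 1998 and 1824 CPM in PKM2 KO and 1910, 969.5 and 1614 CPM in WT. WT 2 was low, and WT 1 lay within the PKM2 KO range (log2 ratio 0.31, SE 0.26, adjusted p = 0.841).

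The zeta, kappa and omega classes had 1 tested member each. Gstz1, the maleylacetoacetate isomerase of tyrosine breakdown, was at 864 to 930 CPM in PKM2 KO and 613 to 927 CPM in WT (log2 ratio 0.19, SE 0.18). Gstk1, the kappa class enzyme of mitochondria and peroxisomes, was at 126 to 132 CPM and 99.7 to 137 CPM (0.17, SE 0.14). Gsto1, an omega class thiol transferase, was at 68.3 to 83.1 CPM and 64 to 73.4 CPM (0.20, SE 0.12). Each range overlapped.

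Theta class genes separated WT 1 from WT 2 and WT 3. Gstt1, which acts on small halogenated compounds, was at 227, 203 and 199 CPM in PKM2 KO and 285, 172 and 176 CPM in WT. WT 1 was the highest and the other WT livers the lowest, and the log2 fold change was -0.01 (SE 0.21). Gstt3, named after its values were seen, was at 122, 121 and 116 CPM in PKM2 KO and 135, 58.5 and 66.4 CPM in WT. Its PKM2 KO livers were nearly equal, and its log2 fold change of 0.47 (adjusted p = 0.79) was 0.95 without WT replicate 1 (adjusted p = 0.0364), where it passed the threshold.

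**Figure D4:**
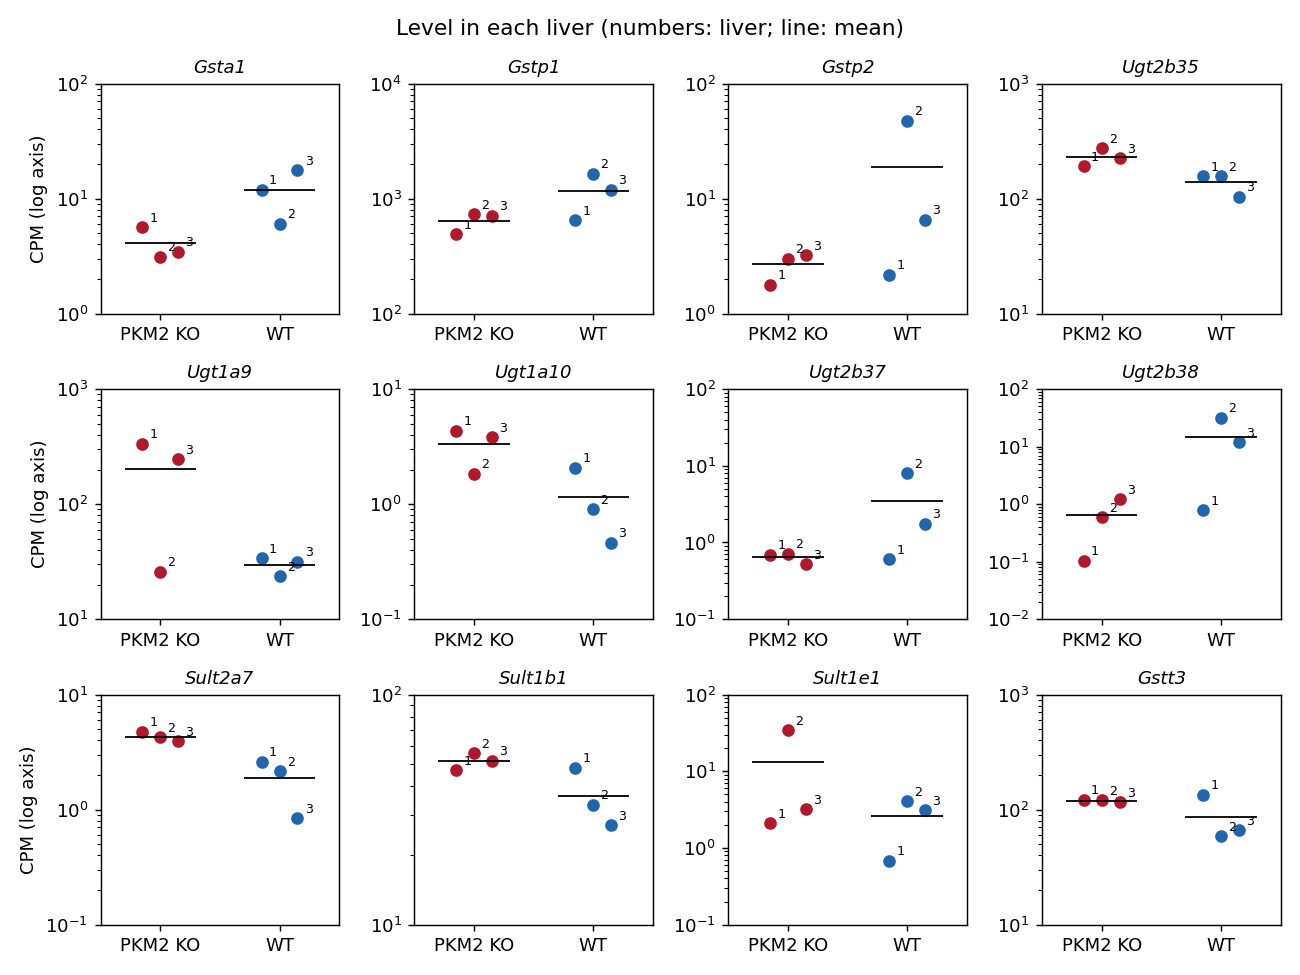
Level of 12 transferases in each liver (points numbered by liver, log axis of CPM; lines are means of 3 livers). Gsta1, Ugt2b35 and Sult2a7 separate the genotypes; Ugt1a9 is high in PKM2 KO 1 and 3 (336 and 246 CPM), Sult1e1 in PKM2 KO 2 (34.3 CPM), and Gstp1, Gstp2, Ugt2b37 and Ugt2b38 in WT 2 and WT 3.

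Glucuronosyltransferases of the Ugt1 locus use alternative first exons spliced to common later exons, so the members share 53.9% to 96% of their 50-base words and their division by the read counter is uncertain. Ugt1a9, which in humans conjugates bulky phenols, was the UGT with the largest positive fold change. Its level was 336, 25.8 and 246 CPM in PKM2 KO, against 33.9, 23.6 and 31.5 CPM in WT. PKM2 KO 1 and 3 were high and PKM2 KO 2 lay within the WT range. The log2 fold change was 2.77 (SE 0.78, adjusted p = 0.566). Without PKM2 KO replicate 2 it was 3.30 and passed (adjusted p = 0.0147), and no other alternative brought it past the threshold.

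The level of the whole Ugt1a locus did not follow Ugt1a9. It summed to 1250, 1189 and 1235 CPM in PKM2 KO and 1234, 839 and 652 CPM in WT. The 3 PKM2 KO livers and WT 1 were alike, and WT 2 and WT 3 were lower, so the log2 fold change of the sum was 0.43 (SE 0.24, adjusted p = 0.759). Ugt1a9 made up 26.9%, 2.17% and 19.9% of the locus in PKM2 KO livers and 2.74%, 2.81% and 4.83% in WT livers. Ugt1a1, the enzyme that conjugates bilirubin, made up 36.2%, 50.7% and 40.1% in PKM2 KO and 40.5% to 42.7% in WT. These shares are parts of a whole, so the large Ugt1a9 part of PKM2 KO 1 and 3 lowers the Ugt1a1 share there. They do not show that Ugt1a1 replaced Ugt1a9 in PKM2 KO 2.

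**Figure D5:**
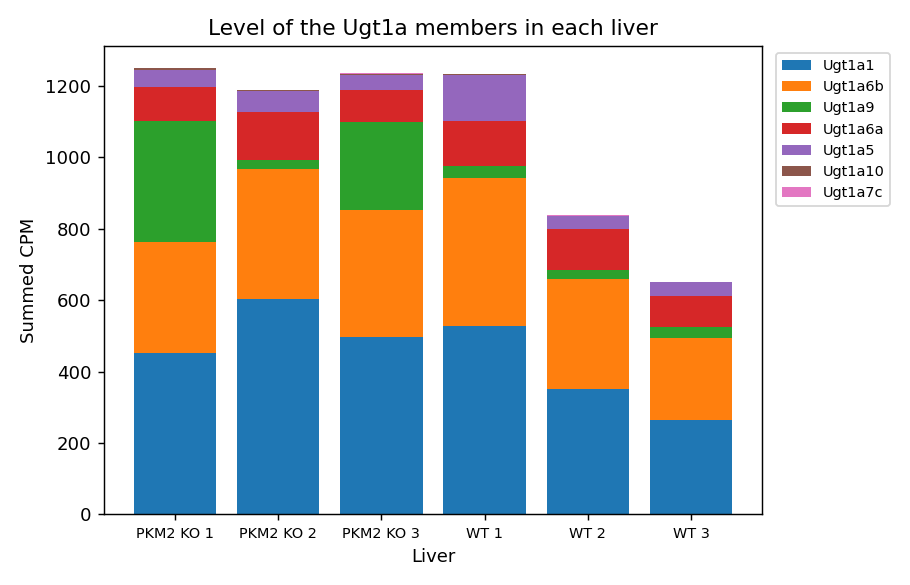
Stacked CPM of the 7 tested Ugt1a members in each liver, most abundant at the bottom. The locus sums to between 1189 and 1250 CPM in 4 livers and to 839 and 652 CPM in WT 2 and WT 3, and the Ugt1a9 segment is thick only in PKM2 KO 1 and PKM2 KO 3.

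Ugt1a1 itself was at 453, 603 and 495 CPM in PKM2 KO and 527, 352 and 264 CPM in WT, with WT 1 inside the PKM2 KO range (log2 ratio 0.44, SE 0.26, adjusted p = 0.768). Ugt1a10, present at a few CPM, was at 4.34, 1.84 and 3.83 CPM in PKM2 KO and 2.07, 0.903 and 0.46 CPM in WT. Like Ugt1a9 it was highest in PKM2 KO 1 and 3, and it shares 57.3% of its words with Ugt1a9 (log2 ratio 1.56, adjusted p = 0.639). Ugt1a7c was at 0.586, 0.373 and 0.274 CPM in PKM2 KO and 1.29, 3.77 and 0.217 CPM in WT. WT 2 held 121 of its counts and the other livers 8 to 36 each, and WT 3 lay below PKM2 KO (log2 ratio -2.09, adjusted p = 0.687).

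Of the 7 tested Ugt2b genes, whose enzymes conjugate steroids and bile acids, 3 had all PKM2 KO livers above all WT livers (42.9%, against 5.8% of all genes). The log2 levels of these 3 went together over the 6 livers (correlations of 0.935 to 0.992), so they are not separate results. Ugt2b35 was at 191, 275 and 225 CPM in PKM2 KO and 157, 158 and 104 CPM in WT. No WT liver reached the PKM2 KO range, and WT 3 was the lowest. Means were 231 ± 42.2 and 139 ± 30.6 CPM (SD, n = 3), with a log2 fold change of 0.73 (SE 0.21, adjusted p = 0.566). The gene shares no 50-base word with another member, and its log2 fold change ran from 0.56 to 0.85 when each liver was left out in turn.

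Ugt2b36 was at 682, 769 and 774 CPM in PKM2 KO and 675, 578 and 444 CPM in WT, and Ugt2b34 had 439, 493 and 492 CPM against 422, 396 and 303 CPM. In both, PKM2 KO 1 exceeded WT 1 only slightly (log2 fold changes 0.39 and 0.34, adjusted p 0.719 for each). In Ugt2b5 and Ugt2b1 the genotypes overlapped. Ugt2b5 was at 702 to 908 CPM in PKM2 KO and 574 to 784 CPM in WT (log2 ratio 0.22, SE 0.18), and Ugt2b1 was at 604 to 833 CPM and 510 to 865 CPM (0.12, SE 0.24), with WT 2 its highest liver.

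Ugt2b38 and Ugt2b37 had the lowest levels per kilobase of the subfamily (4.12 and 1.08 CPM per kb) and lower PKM2 KO means. Ugt2b38 was at 0.103, 0.591 and 1.22 CPM in PKM2 KO and at 0.787, 32.1 and 11.9 CPM in WT. Ugt2b37 was at 0.689, 0.715 and 0.517 CPM in PKM2 KO and at 0.608, 8.03 and 1.76 CPM in WT. WT 2 and then WT 3 were high in both, and WT 1 lay within or near the PKM2 KO range, the same livers that were high in Gstp1 and Gstp2. The log2 fold changes were -4.52 (SE 1.25, adjusted p = 0.566) and -2.43 (SE 0.86, adjusted p = 0.637), and without WT replicate 2 they were -3.30 and -0.90. Ugt2b38 shares 34.2% of its words with Ugt2b5 (413 CPM per kb).

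Genes outside the families that were high in WT 2 are given beside these, Saa1 and Mt1 having been chosen after their values were seen. Of 20 male-biased liver genes, 9 were positive with a median of -0.10, and 19 overlapped between genotypes. The 1 without overlap makes 5%, against 12.1% of all genes. WT 2 was the highest liver for 13 of the list, and for 23% of all genes. The pair with the smallest p were Moxd1 and Cyp4a12b. Moxd1 was at 0.207, 0.0311 and 0.426 CPM in PKM2 KO and at 0.0358, 101 and 9.47 CPM in WT. Cyp4a12b was at 37.6, 59.95 and 75.2 CPM in PKM2 KO and 76.6, 179 and 96.7 CPM in WT (log2 ratio -1.03, adjusted p = 0.637). Among acute phase genes Saa1 was at 27.5 to 54.2 CPM in PKM2 KO and 25.7, 2323 and 356 CPM in WT, and Mt1 was at 12.5 to 15.4 CPM in PKM2 KO and 23.5, 488 and 304 CPM in WT. Fga, the acute phase gene highest in CPM, was at 3042 to 4082 CPM in PKM2 KO and 3002, 10338 and 6640 CPM in WT. As with Gstp1 and Ugt2b38, WT 2 was the highest liver and WT 3 the next for Moxd1, Cyp4a12b, Saa1, Mt1 and Fga. That order is not a trait of the male-biased list. WT 3 was the lowest liver for its members Mup1, Mup7, Cyp2d9 and Susd4, which were named with their values in view.

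Ugt2a3, Ugt3a1 and Ugt3a2 were separated by narrow gaps. The first, an enzyme that in humans conjugates bile acids, was at 381, 426 and 379.7 CPM in PKM2 KO and 372, 307 and 317 CPM in WT (log2 ratio 0.25, SE 0.14, adjusted p = 0.753). The human Ugt3a enzymes use sugar donors other than UDP-glucuronic acid. Ugt3a2 was at 408, 431 and 411 CPM in PKM2 KO and 399, 400.3 and 306 CPM in WT, and Ugt3a1 was at 167, 176 and 166 CPM against 158, 152 and 89.7 CPM. All PKM2 KO livers lay above all WT livers in these 3 genes, but WT 1 was close to PKM2 KO in each. The log2 fold changes of Ugt3a2 and Ugt3a1 were 0.18 and 0.35 (adjusted p 0.848 and 0.782). WT 3 was the low liver in both Ugt3a genes.

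Among sulfotransferases, Sult1a1, the main phenol sulfotransferase of liver, was at 226, 201 and 223 CPM in PKM2 KO and 234, 231 and 322 CPM in WT. The PKM2 KO livers all lay below the WT livers, though only WT 3 stood well apart (log2 ratio -0.28, SE 0.16, adjusted p = 0.768). With scaling by library totals the genotypes overlapped in Sult1a1 too. Sult1d1, which sulfates catecholamines in mice and was also picked with its values in view, ran from 131 to 161 CPM in PKM2 KO and 133 to 154 CPM in WT and overlapped fully (0.03, SE 0.13). Sult1b1, which acts on thyroid hormones, was at 47, 55.5 and 51.5 CPM in PKM2 KO and 48.2, 33.2 and 27 CPM in WT, with WT 1 inside the PKM2 KO range (0.51, SE 0.21, adjusted p = 0.676).

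Sult2a7 belongs to the hydroxysteroid and bile acid sulfotransferases and had the clearest separation of the SULTs at a low level. Its level was 4.76, 4.26 and 3.92 CPM in PKM2 KO and 2.61, 2.15 and 0.839 CPM in WT. Every PKM2 KO liver exceeded every WT liver, with means of 4.31 ± 0.42 and 1.87 ± 0.919 CPM (SD, n = 3), a log2 fold change of 1.22 (SE 0.38) and an adjusted p of 0.583. The gene shares no 50-base word with another member. Its female-biased relatives Sult2a1 to Sult2a6 had at most 4 counts in any liver, and 4 of the 6 were at 0 in all of them, which allows up to 0.107 CPM in the shallowest library. Sult3a1, also female-biased in mice, had at most 8 counts.

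Sult1e1, the estrogen sulfotransferase, was named after its values were seen. Its level was 2.1, 34.3 and 3.22 CPM in PKM2 KO and 0.679, 4.05 and 3.09 CPM in WT. Only PKM2 KO 2 was high, and the log2 fold change of 2.33 (SE 1.10, adjusted p = 0.724) was 0.03 without PKM2 KO replicate 2. Sult5a1 was at 7.66 to 12.4 CPM in PKM2 KO and 5.66 to 18.9 CPM in WT (-0.10, SE 0.46). The 13 other tested members all overlapped between genotypes, with log2 fold changes from -0.44 (Ugt1a5) to 0.70 (Sult1c2). Of the 15 members not tested, 7 were at 0 in every liver and the other 8 had at most 44 counts over all livers.

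The cofactor supply of the families was read from lists of other genes. Of 21 tested genes of glutathione supply, none passed, 3 had an unadjusted p under 0.05, all with higher PKM2 KO levels, and 8 had a positive fold change. Gclc, the catalytic subunit of the rate-limiting enzyme of glutathione synthesis, was at 210, 226 and 198 CPM in PKM2 KO and 162, 121 and 134 CPM in WT. Its PKM2 KO livers all lay above its WT livers (log2 ratio 0.60, SE 0.14, adjusted p = 0.566). Slc25a40, a mitochondrial glutathione carrier, was at 6.19 to 6.72 CPM and 3.3 to 4.47 CPM, also without overlap (0.78, SE 0.17, adjusted p = 0.503). The list had a median of -0.08.

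For UDP-glucuronic acid, 9 genes were tested and none passed. Slc35d2, a carrier of nucleotide sugars, was at 26.5, 30.1 and 31.3 CPM in PKM2 KO and 54.5, 55.2 and 39.3 CPM in WT. The genotypes did not overlap, with PKM2 KO lower (log2 ratio -0.76, SE 0.15, adjusted p = 0.488). Rgn, the lactonase regucalcin, was at 1296 to 1369 CPM and 786 to 1127 CPM (0.48, SE 0.18, adjusted p = 0.648). Of 14 genes of PAPS supply and sulfate turnover, none had an unadjusted p under 0.05. The smallest were those of Sumf1, a sulfatase-activating enzyme (0.20, SE 0.10), and the sulfate carrier Slc26a1 (0.26, SE 0.16). Among 12 membrane-bound and other glutathione enzymes none had such a p either, with Glo1, the glyoxalase, at 0.31 (SE 0.15) and Clic1 at -0.20 (SE 0.11).

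Of 20 other conjugating enzymes, mostly methyl, acetyl and acyl transferases, none passed, 14 were positive and the median was 0.04. The pair with the smallest p were both lower in PKM2 KO. Nnmt, which methylates nicotinamide, was at 59.97, 91.9 and 65.2 CPM in PKM2 KO and 95.7, 272 and 271 CPM in WT, so WT 2 and WT 3 were again high (log2 ratio -1.56, SE 0.39, adjusted p = 0.566). As3mt, the arsenic methyltransferase, was at 28.7 to 33.5 CPM and 37.8 to 53.9 CPM without overlap (-0.58, SE 0.15, adjusted p = 0.566). Of the exporters of conjugates and uptake carriers 12 of 15 were positive, with a median of 0.31 and 1 unadjusted p under 0.05. The uptake carrier Slco1a4 was at 61.9 to 79.9 CPM in PKM2 KO and 16.9 to 53 CPM in WT (0.93, SE 0.37, adjusted p = 0.666), and Slco1b2 was at 1269 to 1459 CPM and 688 to 1221 CPM (0.52, SE 0.23, adjusted p = 0.699).

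Targets of the regulators of these families were also counted. Of 19 tested CAR and PXR targets, 15 were positive, none passed, and the median was 0.54. Wholly above WT lay 7 (36.8%, against 5.8% of all genes) and wholly below 1 (all genes 6.27%). The 7 include the related genes Cyp2c29, Cyp2c37, Cyp2c50 and Cyp2c54. The other 11 overlapped, among them Cyp2b10 (0.30, SE 0.56) and Cyp3a11 (0.44, SE 0.30). These 4 Cyp2c genes, Cyp2b10 and Cyp3a11 were named with their values in view. Of the pair with the smallest p, Cyp2c55 was at 9.79 to 16.7 CPM and 5.64 to 10.2 CPM (0.90, SE 0.29), and Por, the P450 reductase, was at 340.4 to 409.7 CPM and 452 to 692 CPM (-0.56, SE 0.19). The level of Nr1i3, the CAR receptor itself, was 137, 131 and 119.5 CPM in PKM2 KO and 159, 53.4 and 46.5 CPM in WT (0.59, SE 0.44, adjusted p = 0.818), chosen after its values were seen because WT 1 stood with PKM2 KO as in Gstt3 and the Ugt1a sum. Of 7 AHR targets, 5 were positive. Cyp1a2 was at 684, 1090 and 791 CPM in PKM2 KO and 455, 582 and 365 CPM in WT (0.87, SE 0.24, adjusted p = 0.566), and Cyp1a1 had 1.28 to 1.4 CPM and 0.46 to 0.858 CPM (1.04, SE 0.30, adjusted p = 0.566).

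Of 23 NRF2 targets, 13 were positive with a median of 0.06. Besides Gclc, the heme oxygenase Hmox1 had the smallest p, with 16.5 to 21.7 CPM in PKM2 KO and 23.1 to 30.9 CPM in WT (-0.53, SE 0.16, adjusted p = 0.566). Among 37 regulators, 16 were positive and none passed. Nr0b2, the repressor SHP, was at 18, 17.9 and 37.5 CPM in PKM2 KO and 5.43, 12 and 13 CPM in WT (1.27, SE 0.40, adjusted p = 0.594), and Mafg, a small MAF partner of NRF2, was at 30.1 to 33.7 CPM and 18.5 to 27.4 CPM (0.48, SE 0.15, adjusted p = 0.594). Pericentral genes, which mark the zone where much of drug conjugation takes place, were positive in 23 of 23 cases with a median of 0.40. Of these genes, 8 lay wholly above WT (34.8%, against 5.8% of all genes). Cyp2e1, the highest of them in CPM, was at 7942, 9079 and 10990 CPM in PKM2 KO and 8601, 6445 and 4141 CPM in WT (0.55, SE 0.30, adjusted p = 0.758), with WT 3 the lowest liver, as it was for 22 transferases. Cyp2c29, the next, was at 2378 to 2948 CPM and 737 to 1980 CPM, without overlap (0.98, SE 0.34, adjusted p = 0.637). Periportal genes were positive in 9 of 20 cases, and their highest members, Alb (0.31, SE 0.31) and Ass1 (-0.15, SE 0.21), overlapped. The lists share genes, so their counts are not separate results. The pericentral genes Cyp1a2, Cyp2c29, Cyp2c37, Slco1b2 and Rgn also stand in other lists above. Aldh1b1 stands in both the pericentral and the periportal list. Slco1a4, Abcc2 and Abcc3 are counted both as carriers and as CAR and PXR targets. Abcc3 and Abcc4 are also counted as NRF2 targets, and Nqo1 as both an AHR and an NRF2 target.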

How the data were processed

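The authors deposited expected counts per gene, the estimates RSEM makes when it divides reads among matching transcripts. RSEM 1.2.12, Bowtie 1.0.1 and the mm9 build are named, per the submitters' processing notes; the annotation and strandedness are not given in the sources used here. Between 21.2% and 23.8% of values per library were not whole (compared exactly). The most similar library pair had a chi-square of 37.1 per gene, far above sampling noise, and all 6 livers entered as separate samples.

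Expected counts were rounded and analysed in R 4.3.3 with edgeR 4.0.16: filterByExpr (13058 genes kept), TMM scaling, and the 2-sided quasi-likelihood F test with genotype as the only term, with Benjamini-Hochberg adjustment over all genes and a threshold of 0.05. SE is the absolute log2 fold change over the square root of F. The fit was also run on simulated counts with planted changes. These had the same spread in both genotypes, so the run does not cover the larger WT spread seen here. Counting floors of 3 counts cover counting error only. Alternatives used limma 3.58.1 and DESeq2 1.42.0. Lengths and 50-base words came from GENCODE M21 transcripts (GRCm38), promoters from RefSeq (GRCm38.p6), aligned with Biopython 1.88; plots used matplotlib.

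Members and lists were chosen with earlier results of these data known. Named members were those with an unadjusted p under 0.05 or no overlap, the highest in CPM of each class, and the 10 highest in CPM. For each related list the rule named the 2 genes with the smallest p, and for each cell type or zone list used the 2 highest in CPM. Other names are marked where they appear, apart from Pkm and the sex check.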

Additional observations from a re-analysis of the deposited data

How the results depend on the processing

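Against 3 genes called over the whole table, 5 were called without a filter on low counts and with limma voom, 7 with a replicate block or at a threshold of 0.1, 97 with DESeq2 and 163 when WT 3 was the sole WT liver; leaving out 1 liver gave 3 to 51. With WT 3 alone the spread comes from the 3 PKM2 KO livers, and a single WT liver is assumed to vary like them, although WT varied more; that fit's calls describe WT 3 and not the genotype. The number of transferases called was 0 under every alternative except DESeq2 (1, Gsta1), WT 3 as the sole WT liver (5, among them Gsta1 and Gstt3) and the fits without 1 liver (0 to 1). Those with an unadjusted p under 0.05 numbered 6 with voom (all genes 6.79%), 27 when WT 3 was the sole WT liver (17.8%), and 6 to 23 without 1 liver (3.37% to 16.2%). Members that did not overlap numbered 38 when WT 3 was the sole WT liver (all genes 66.9%) and 11 to 29 without 1 liver (16.3% to 34.4%), against 12.1% of all genes with 6 livers. The median log2 fold change of the members stayed positive, from 0.11 to 0.45.

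Direction reversed for 9 of the named members. Gstt1 was at 0.012 with library totals, 0.023 with voom, 0.029 with the replicate block, 0.26 with WT 3 alone, 0.11 with its class summed, and -0.14 to 0.28 without 1 liver. Sult5a1 was at 0.10 with voom and with the block, 0.77 with WT 3 alone, and -0.39 to 0.69 without 1 liver. Ugt1a7c was at 0.91 with WT 3 alone and 0.43 with the locus summed. Without 1 liver, Ugt2b1 ranged from -0.030 to 0.39 and Sult1d1 from -0.034 to 0.12. Summing copies into 1 row, which lets the most abundant copy set the value, put Sult1b1, Sult1d1 and Sult1e1 at -0.047 and Ugt2b37 and Ugt2b38 at 0.28. The cause of the other reversals was not tested. Same-numbered livers did not deviate together (correlations of -0.11 to 0.04), so the replicate block is a numbering only; it called 7 genes and 0 transferases. The WT livers, more spread than the PKM2 KO livers, and 3 mice per genotype limit these results.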
